A study of Mus musculus with 6 samples.

Results

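The genes described here are those of the ErbB receptors *Egfr*, *Erbb2* and *Erbb3* and the ErbB ligands *Tgfa*, *Hbegf*, *Areg*, *Ereg*, *Epgn*, *Btc* and *Nrg1*. These 10 genes (3 receptors and 7 ligands) were taken by gene symbol, as a list drawn up with earlier results of these data known, and all 10 were found among the 15280 genes of the expression table. RNA-Seq libraries were made from 3 BK5.ATF3 transgenic female mice that had each been allowed to raise 1 litter. Each mouse gave 1 mammary tumor (T) and 1 adjacent normal mammary gland (M), giving gland libraries M11035, M11640 and M9232 (n = 3) and, from the same mice in this order, tumor libraries T11035, T11640 and T9232 (n = 3). Tumors arose when the mice were 6 to 12 months old and were taken at a length of 1.5 cm. Both tissues carry the BK5.ATF3 transgene, which drives ATF3 in basal epithelial cells, and no non-transgenic gland was analysed here. Expression is given as CPM, the fragments of a gene scaled to the effective size of its library. The libraries held 4750989 to 7806908 fragments on genes, and 3 fragments, used here as the floor of detection, came to 0.393 to 0.610 CPM.

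The tissues differed in cell type markers. All 14 pan-epithelial markers on a list that includes *Epcam*, *Cdh1* and *Krt8* were in the table, and their summed level was between 284 and 608 CPM in the glands and between 1012 and 1414 CPM in the tumors. The 8 adipocyte markers summed to between 6466 and 11948 CPM in the glands and to between 253 and 404 CPM in the tumors. The 10 squamous epithelial markers summed to between 9.41 and 10.2 CPM in the glands and to between 2356 and 4342 CPM in the tumors. Normal glands M11035 and M11640 also held 3576 and 1388 CPM of 5 skeletal muscle markers, against 3.15 CPM in M9232, and M9232 held 40793 CPM of 5 milk protein genes, against 2274 and 4583 CPM in the other two glands. The 8 basal epithelial markers summed to between 241 and 377 CPM in the glands and to between 2651 and 3195 CPM in the tumors, and 8 fibroblast markers to between 968 and 3720 and to between 8541 and 9196 CPM. The part of these sums in the results was not tested, except that the 10 genes are also given relative to the pan-epithelial sum. In bulk tissue, fewer cells of a type and less RNA per cell cannot be told apart.

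ErbB receptors are receptor tyrosine kinases that pair with each other when a ligand binds and then signal through the RAS-MAPK and PI3K-AKT pathways. The ligands are made as membrane-anchored precursors, are cut free by cell-surface proteases, and share a compact EGF-like module held together by disulfide bonds. In the mammary gland this family takes part in duct growth and in milk-producing differentiation, and amphiregulin, the product of *Areg*, is known as the ligand through which estrogen drives duct growth.

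The part of the coding sequence that makes these genes a family is shown here for 6 of the 7 ligands, from the first to the last of the cysteine codons of the EGF-like module, read from the coding transcripts of GENCODE vM1 (mm9) and written 5′ to 3′ with the cysteine codons in capitals. *Nrg1* has 2 modules, taken from different transcripts.
Tgfa: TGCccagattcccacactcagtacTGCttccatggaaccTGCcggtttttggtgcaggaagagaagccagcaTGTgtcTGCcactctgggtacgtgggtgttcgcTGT
Areg: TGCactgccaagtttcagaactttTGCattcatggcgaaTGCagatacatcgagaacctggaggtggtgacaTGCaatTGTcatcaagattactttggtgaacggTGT
Ereg: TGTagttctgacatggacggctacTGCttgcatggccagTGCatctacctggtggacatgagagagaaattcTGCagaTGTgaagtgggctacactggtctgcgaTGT
Epgn: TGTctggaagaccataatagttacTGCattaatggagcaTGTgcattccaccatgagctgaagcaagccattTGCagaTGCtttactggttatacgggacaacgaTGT
Btc: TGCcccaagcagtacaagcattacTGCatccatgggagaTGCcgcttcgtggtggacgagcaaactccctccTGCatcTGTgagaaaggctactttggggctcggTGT
Nrg1, first form: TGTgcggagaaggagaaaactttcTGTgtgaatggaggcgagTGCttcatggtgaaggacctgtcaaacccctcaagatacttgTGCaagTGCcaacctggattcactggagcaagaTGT
Nrg1, second form: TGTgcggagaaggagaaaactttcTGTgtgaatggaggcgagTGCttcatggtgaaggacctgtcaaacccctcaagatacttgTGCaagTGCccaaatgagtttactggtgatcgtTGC

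In each of *Tgfa*, *Areg*, *Ereg*, *Epgn* and *Btc* the module was 108 bases long, with 4 codons between the second and the third cysteine codon and 10 between the third and the fourth. In *Nrg1* it was 120 bases long, with 5 and 13 codons at these places, and its 2 forms shared the first 94 bases and differed within the last 26, which is the part that distinguishes the alpha and beta neuregulins. The table gives 1 value for the *Nrg1* gene, so the forms could not be measured apart. Over the 15 pairs of these 6 ligands, the modules were between 49.5% and 62.0% identical in an alignment of their bases. Over whole coding transcripts of the 10 genes, the longest run of identical bases between any pair was 21 bases, between *Ereg* and *Hbegf*. Longer stretches with mismatches were not searched for.

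Compared with the normal glands, all 10 genes were higher in the tumor in each of the 3 mice. The test was limma's moderated test (two-sided, log2(CPM + 0.5)), p-values were adjusted over all 15280 genes by Benjamini-Hochberg, and a gene was called at an adjusted p of at most 0.05 with a log2FC (log2 fold change, tumor over gland) of at least 1 in size. A log2FC is given ± its standard error (SE). Of the 10 genes, 9 were called higher, where 14.5% of all genes were, and the list leaves out *Erbb4*, *Egf* and *Nrg4*, whose means were lower in the tumors. None was called lower, where 13.7% of all genes were, and 0 of the 10 were lower at an unadjusted p under 0.05 with limma, edgeR or DESeq2. In 9 of the 10 genes every tumor lay above every gland, against 27.6% of all genes, and in 0 every tumor lay below, against 26.3%. The median log2FC was 2.72 over the 10 genes, 1.08 over the 3 receptors and 3.93 over the 7 ligands, against -0.0028 over all genes. With *Ereg* and *Epgn*, which were under the floor in the glands, at their lower bounds, they stay the 2 largest values and the medians are the same by construction. The plot of each gene by library shows these shifts mouse by mouse.

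**Figure D1:**
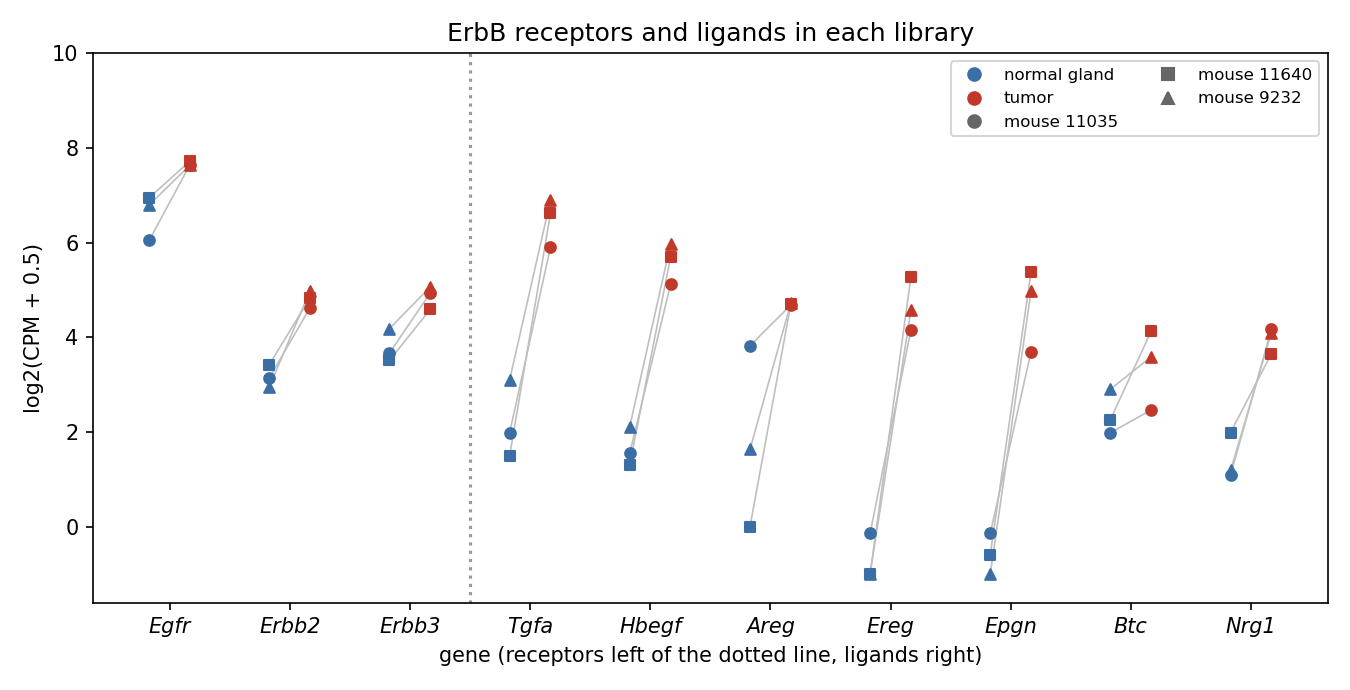
Expression of the 3 ErbB receptors and 7 ligands in each library, as log2(CPM + 0.5), with normal glands in blue, tumors in red, a marker shape for each mouse and a grey line joining the 2 tissues of a mouse. All lines rise from gland to tumor, and the gland and tumor points overlap for *Btc* alone.

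*Egfr*, the receptor of most of these ligands, is on chromosome 11 (mm9, 16652206 to 16818161, plus strand). It was at 65.5, 123 and 110 CPM in glands M11035, M11640 and M9232 and at 199, 211 and 198 CPM in the tumors of the same mice. The tumors were close together, and the groups did not overlap. The log2FC was 1.07 (standard error 0.23, adjusted p = 0.00561, limma), but without gland M11035, the lowest, it was 0.80 and below the fold threshold (limma adjusted p = 0.00377).

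*Erbb2*, which encodes the receptor that binds no ligand of its own and serves as the favored partner of the others, is also on chromosome 11 (98273784 to 98299030, plus strand). Its exons overlap those of *1810046J19Rik*, and fragments in the overlap cannot be assigned to 1 of them. Its values were 8.34, 10.2 and 7.25 CPM in the glands and 24.2, 28.0 and 31.2 CPM in the tumors. Its log2FC was the largest of the 3 receptors, 1.64 ± 0.21 (SE, limma adjusted p = 3.59e-04), and it was called under all 14 alternative settings. *Erbb3* encodes the neuregulin receptor, whose own kinase is nearly inactive and which depends on a partner, and is on chromosome 10 (128004579 to 128026708, minus strand). It rose from 12.2, 10.9 and 17.6 CPM in the glands to 30.1, 23.6 and 33.0 CPM in the tumors, a log2FC of 1.08 ± 0.23 (SE, limma adjusted p = 0.00630). Without gland M11640 or tumor T9232 the log2FC of *Erbb3* was 0.94 or 0.98 and fell below the fold threshold.

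The proportions of the receptors to each other overlapped between the tissues. They were taken in each library after adding 0.5 CPM to each gene. On the log2 scale per kb of transcript, *Erbb2* relative to *Egfr* was -2.39 ± 0.48 (SD, n = 3) in the glands and -1.83 ± 0.19 in the tumors, a difference of 0.57 (exact permutation test, two-sided, p = 0.2, where 3 against 3 cannot go below 0.1, and 0.267 adjusted over 4 ratios). It was 0.83 without gland M11035 (exact permutation p = 0.1) and 0.36 without gland M9232. *Erbb2* relative to *Erbb3* differed by 0.56, with the tumor higher in all 3 mice but overlapping groups (exact permutation p = 0.2, adjusted p = 0.267), and by 0.26 without gland M9232 and 0.83 without gland M11640 (exact permutation p = 0.4 and 0.1). *Erbb3* relative to *Egfr* was -2.04 ± 0.55 in the glands and -2.04 ± 0.29 in the tumors (exact permutation p = 1). A p in this range does not show that the proportions were equal.

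*Tgfa* encodes transforming growth factor alpha, a ligand of the EGF receptor, and is on chromosome 6 (86145420 to 86225151, plus strand). It was at 3.46, 2.31 and 8.07 CPM in the glands and at 59.2, 97.4 and 118 CPM in the tumors. The lowest tumor was above the highest gland in this gene by more than the range of the glands. The mean rose from 4.61 ± 3.05 to 91.6 ± 29.9 CPM (SD, n = 3), a log2FC of 4.28 ± 0.41 (SE, limma adjusted p = 9.06e-05). In the single mice the log2 difference between tumor and gland was 3.91 for the mouse of T11035, 5.12 for that of T11640 and 3.79 for that of T9232.

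*Hbegf* encodes heparin-binding EGF-like growth factor, which binds EGFR and ERBB4, and is on chromosome 18 (36664583 to 36675459, minus strand). Its values were 2.44, 1.98 and 3.83 CPM in the glands and 34.2, 51.4 and 62.2 CPM in the tumors. Its within-mouse log2 differences were alike, at 3.56, 4.39 and 3.86 for the mice that gave T11035, T11640 and T9232, and the fitted log2FC was 3.93 (standard error 0.30, adjusted p = 2.42e-05, limma). *Tgfa* and *Hbegf* were called under all 14 alternative settings.

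*Nrg1* encodes neuregulin 1, a ligand of ERBB3 and ERBB4, and is on chromosome 8 (32928500 to 33119581, minus strand). It was at 1.63, 3.47 and 1.78 CPM in the glands and at 17.5, 12.1 and 16.6 CPM in the tumors, with no overlap. The log2FC was 2.55 (standard error 0.31, adjusted p = 2.88e-04, limma), and it too was called under all 14 alternatives. In the mouse of T11640 the log2 difference was 1.66, against 3.08 and 2.91 in those of T11035 and T9232, and gland M11640 had the highest *Nrg1* level of the 3 glands.

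The other 4 ligand genes, *Epgn*, *Ereg*, *Areg* and *Btc*, are neighbors on chromosome 5 within 375 kb (mm9). *Epgn* (91456490 to 91464241), *Ereg* (91503643 to 91522675) and *Areg* (91568641 to 91577458) lie in a row on the plus strand within 121 kb, and *Btc* (91786287 to 91831939) lies 209 kb further on, on the minus strand. No exons of these genes overlapped those of another gene of the table. All of them encode ligands of the EGF receptor, and the products of *Ereg* and *Btc* also bind ERBB4.

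*Ereg*, which encodes epiregulin, was listed at 0.407, 0 and 0 CPM in glands M11035, M11640 and M9232, which is 2, 0 and 0 fragments, and at 17.3, 38.1 and 23.4 CPM in the tumors. *Epgn*, which encodes epigen, was at 0.407, 0.165 and 0 CPM in the glands (2, 1 and 0 fragments) and at 12.5, 41.2 and 31.0 CPM in the tumors. All 3 glands were at or under 3 fragments for both genes, and expression was not detectable in the glands at this depth, whereas each tumor had at least 67 fragments of *Epgn* and 93 of *Ereg*. Against the mean of the 3 gland floors, 0.505 CPM, the tumor mean was at least 52.0-fold higher for *Ereg* and at least 55.8-fold higher for *Epgn*. Per mouse these lower bounds were 28.4, 77.0 and 57.0 for *Ereg* and 20.4, 83.0 and 75.6 for *Epgn* for the mice that gave T11035, T11640 and T9232. All of these bounds rest on taking 3 fragments as the upper limit of a gland level. In log2 the bounds on the means are 5.70 and 5.80. The fitted log2FC values of *Ereg* and *Epgn*, 5.38 and 5.26, are smaller and come from log2 values after adding 0.5 CPM. Both genes were called under all 14 alternatives (limma adjusted p = 1.80e-05 for *Ereg* and 4.71e-05 for *Epgn*). T11035 was the lowest of the 3 tumors for 6 of the 7 ligands, all except *Nrg1*, and for *Erbb2*, although the tumors were close together for *Areg*.

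*Areg*, which encodes amphiregulin, had nearly the same level in the 3 tumors, at 25.1, 25.4 and 25.8 CPM, but not in the glands, at 13.6, 0.496 and 2.60 CPM. Glands M11035 and M11640 differed 27.5-fold, and the second of these was at the floor, with 3 fragments. The tumors were above all glands, and the log2FC was 2.88 (standard error 0.78, adjusted p = 0.0178, limma), but the log2 difference was 0.86 in the mouse of T11035, 4.70 in that of T11640 and 3.08 in that of T9232. Its adjusted p lay between 3.97e-04 and 0.0997 over the 14 alternatives (limma, edgeR and DESeq2). It was not called with DESeq2 (log2FC 2.21) or without tumor T11035, T11640 or T9232 (log2FC values 2.89, 2.88 and 2.87), where the fold change was as large and 1 tumor fewer was fitted. The summed level of 7 hormone-sensing luminal markers, the cell type in which *Areg* is an estrogen target, was 322, 468 and 526 CPM in glands M11035, M11640 and M9232 and between 56.9 and 133 CPM in the tumors. Gland M11035, with the most *Areg*, had the lowest summed level of these markers among the glands. It was also the lowest gland for the pan-epithelial, basal, myoepithelial contractile and milk protein sums, at 284, 241, 353 and 2274 CPM. Its squamous sum, 10.2 CPM, was the highest of the glands. The part of cell composition in the spread of *Areg* was not tested.

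*Btc*, which encodes betacellulin, had the smallest log2FC of the ligands. It was at 3.46, 4.29 and 6.98 CPM in the glands and at 5.02, 17.0 and 11.5 CPM in the tumors, so that tumor T11035 lay within the range of the glands. It was not called, with a log2FC of 1.01 ± 0.43 (SE, limma adjusted p = 0.0935). With the mouse as a block, in the paired fit, its adjusted p was 0.0442 (limma) and it was called at the same log2FC. It was also called with DESeq2 (log2FC 1.19, adjusted p = 0.0447) and without tumor T11035 (1.48, adjusted p = 0.0173, limma), while without tumor T11640 its log2FC was 0.65.

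**Figure D2:**
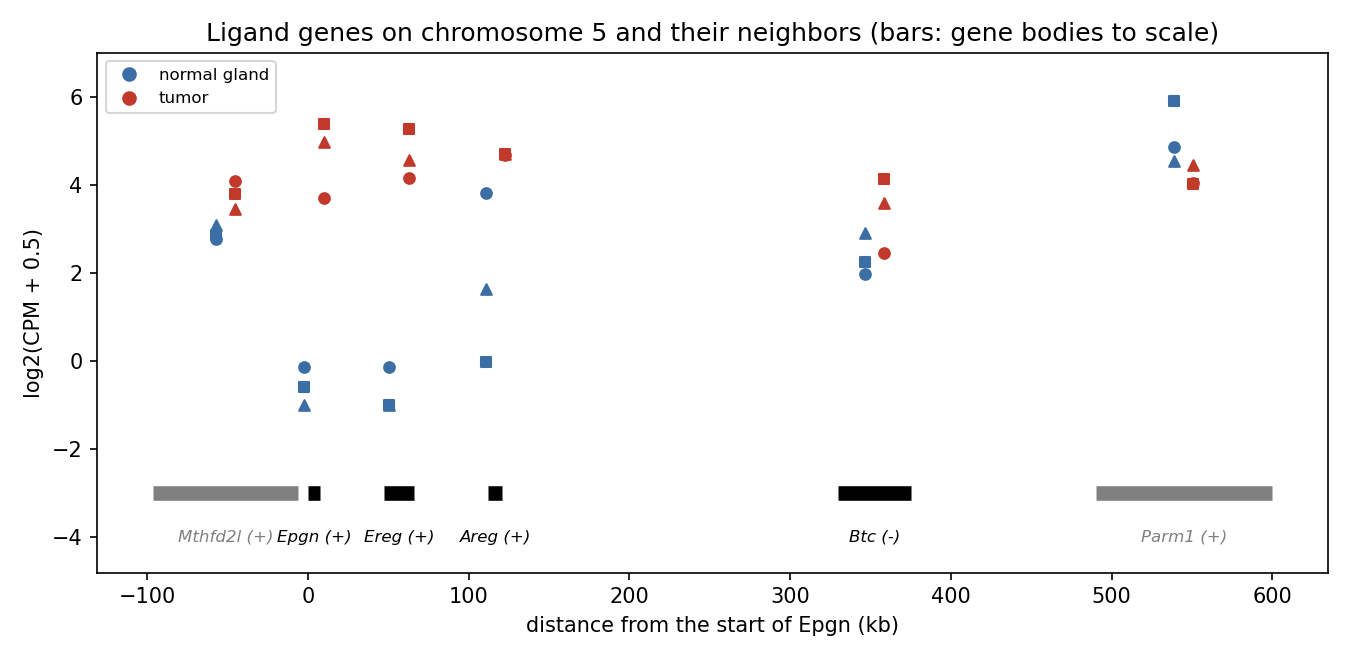
The 4 ligand genes on chromosome 5 (black bars, to scale, with strand) and the nearest other genes of the table on either side (grey bars), placed by distance from the start of *Epgn* in kb, with each library's log2(CPM + 0.5) above its gene (normal glands blue, tumors red). *Epgn* and *Ereg* go from at or under the floor in every gland to between 12.5 and 41.2 CPM in the tumors, *Areg* is spread over the glands, and the tissues overlap at *Btc*.

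The stretch upstream of these genes is shown because ATF3, the transgene product, belongs to the family of factors that bind the cAMP response element (CRE), TGACGTCA, and sites of the AP-1 type, TGANTCA. Of the 10 genes, 6 had a promoter in the RefSeq table (GRCm38.p6, 250 bases before to 50 after the start): *Areg*, *Epgn*, *Btc*, *Tgfa*, *Egfr* and *Erbb2*. *Ereg*, *Erbb3*, *Hbegf* and *Nrg1* had none there. Both motifs read the same on either strand, and a CRE does not contain an AP-1 site. Positions count back from the start of the gene, and the 130 bases before the start are printed 5′ to 3′ on the strand of the gene, with the CRE in capitals for *Areg* and the CRE half-site (TGACG or its reverse complement CGTCA) in capitals for *Epgn* and *Btc*.
Areg, chr5:91139469-91139598, plus strand: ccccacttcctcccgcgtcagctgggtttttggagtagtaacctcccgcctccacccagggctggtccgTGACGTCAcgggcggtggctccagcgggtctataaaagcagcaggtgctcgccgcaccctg
Epgn, chr5:91027387-91027516, plus strand: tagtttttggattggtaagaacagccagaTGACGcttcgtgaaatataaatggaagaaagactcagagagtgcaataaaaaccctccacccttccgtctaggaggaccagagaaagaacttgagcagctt
Btc, chr5:91402995-91403124, minus strand: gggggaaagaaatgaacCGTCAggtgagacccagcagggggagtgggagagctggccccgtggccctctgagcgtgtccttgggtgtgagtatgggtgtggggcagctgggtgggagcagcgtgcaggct

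*Areg* had a complete CRE, starting at -61, and was the only one of the 6 with one, where 1.79% of the 32851 promoters of that table hold it. It also had a half-site at -115 outside that CRE. *Epgn* had a half-site at -101, *Btc* at -113 and *Erbb2* at -171, where 20.8% of all promoters hold a half-site on either strand, the CRE itself included. *Tgfa* and *Egfr* had no half-site. The AP-1 letters were in 0 of the 6, and in 7.81% of all promoters. A match of letters is a description of the sequence, and no binding was measured in these libraries.

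Of the other genes of the family, 2 were called lower, *Nrg4* and *Egf*. *Nrg4*, a neuregulin that binds ERBB4 and is known as a secreted product of fat, fell from 55.3, 89.0 and 49.9 CPM in the glands to 3.72, 3.28 and 3.90 CPM in the tumors, a log2FC of -3.94 ± 0.25 (SE, limma adjusted p = 9.82e-06). Exons of *Nrg4* and of *Fbxo22* overlap. The adipocyte marker sum given above was likewise lower in every tumor than in any gland, and its part in the fall of *Nrg4* was not tested. *Egf*, the founding ligand, fell from 7.12, 5.29 and 2.33 CPM to 2.05, 0.786 and 1.05 CPM, a log2FC of -1.54 ± 0.44 (SE, limma adjusted p = 0.0219), but it was not called without gland M11035, gland M11640, tumor T11640 or tumor T9232, where *Nrg4* was the 1 gene called (adjusted p from 0.0675 to 0.0850, limma). *Erbb4*, which encodes the fourth receptor, was at 1.83, 3.30 and 2.60 CPM in the glands and at 2.42, 0.131 and 0.150 CPM in the tumors, and was not called (log2FC -1.51 ± 0.60 SE, limma adjusted p = 0.0737). Tumor T11035 lay within the range of the glands, and without it the log2FC of *Erbb4* was -2.24 (limma adjusted p = 0.00393). Of these 3 genes, 0 were called higher, also with edgeR or DESeq2, and 0 were higher at an unadjusted p under 0.05. *Nrg2* and *Nrg3* were not analysed here.

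**Figure D3:**
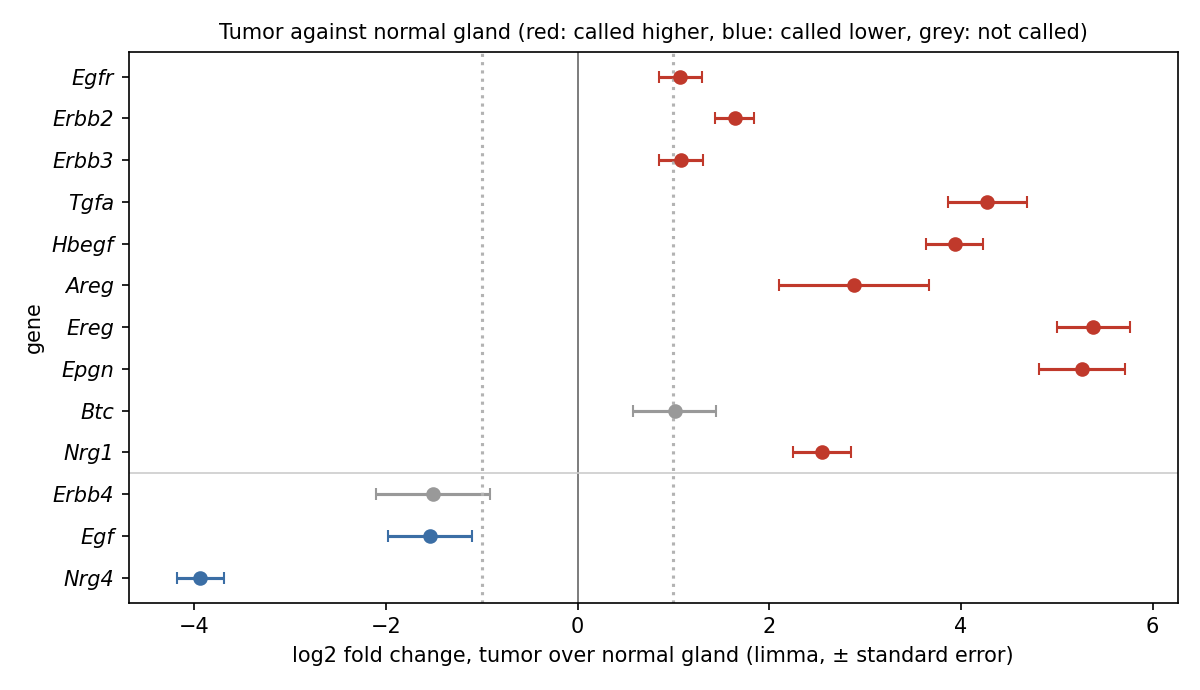
Log2FC of tumor over normal gland for the 10 genes (above the line) and for *Erbb4*, *Egf* and *Nrg4* (below it), with standard errors from limma. Red marks genes called higher, blue genes called lower and grey genes not called, and dotted lines mark the fold threshold. Values run from -3.94 for *Nrg4* to 5.38 for *Ereg*, whose fitted value, like those of *Epgn* and *Erbb4*, depends on the pseudocount.

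Levels of different genes were compared per kb of the longest coding transcript. In the normal glands the receptor *Egfr* had the highest mean of the 10 genes, 9.74 ± 2.95 CPM per kb (SD, n = 3), followed by *Areg* at 4.65 ± 5.88 and *Erbb3* at 2.26 ± 0.59. Next came *Btc* at 1.76, *Erbb2* at 1.72, *Tgfa* at 1.23, *Hbegf* at 1.16 and *Nrg1* at 1.09, and last *Epgn* and *Ereg*, at or under the floor. Each gene overlapped the next in this order in at least 1 library, except *Nrg1* and *Epgn*. *Nrg4*, which is outside the 10 genes, was at 30.9 CPM per kb in the glands, above *Egfr*, and at 1.73 in the tumors. Among the 10 genes, the order in the tumors was led by ligands. *Tgfa* was at 24.3 ± 7.96 CPM per kb, *Areg* at 21.2 ± 0.27, *Hbegf* at 20.8 ± 5.94, *Egfr* at 19.9 ± 0.67 and *Epgn* at 16.0 ± 8.27. *Nrg1* (7.32), *Ereg* (6.35), *Erbb2* (5.55), *Erbb3* (4.80) and *Btc* (4.01) followed, and every gene overlapped the next in at least 1 library. The place of *Nrg1* depended on the length used. Over the merged exons of its transcripts it was at 4.78 CPM per kb in the tumors, below *Ereg*, whose length is the same either way.

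Summed per kb, the 3 receptors were at 10.1, 15.9 and 15.2 CPM per kb in the glands and at 29.4, 30.1 and 31.1 in the tumors. The 7 ligands summed to 15.6, 5.14 and 9.27 CPM per kb in the glands and to 72.5, 113 and 114 in the tumors. *Areg* alone made up 72.6% of the ligand sum in gland M11035, against 8.04% and 23.4% in glands M11640 and M9232. In the tumors *Tgfa* (24.0% ± 3.05, SD, n = 3), *Areg* (22.1% ± 5.86), *Hbegf* (20.6% ± 1.99) and *Epgn* (15.3% ± 5.45) shared most of it. The share of *Btc* was between 7.90% and 29.9% in the glands and between 2.48% and 5.39% in the tumors. For the ratio of ligands to receptors, 0.5 CPM was added to each gene before dividing by length and summing. It is therefore not the quotient of the sums above. The log2 ratio of the 7 ligands to the 3 receptors was -0.34 ± 1.01 in the glands and 1.71 ± 0.34 in the tumors, without overlap and higher in the tumor in all 3 mice (difference 2.05, exact permutation test, two-sided, p = 0.1, the smallest that 3 against 3 can give, and 0.267 adjusted over the 4 ratios). The difference was 2.22 with 0.1 CPM added and 1.88 with 1 CPM added. The difference also depended on which ligands were counted and on the length used for *Nrg4*. *Nrg4* was at 30.9 CPM per kb in the glands, and with *Egf* and *Nrg4* added the 9 ligands summed to 42.0 ± 7.70 CPM per kb in the glands and 102 ± 23.7 in the tumors, so that the difference in the log2 ratio to the receptors was 0.08 (exact permutation p = 0.9). Over merged exons, which in *Nrg4* are longer than the coding transcript, *Nrg4* was at 10.7 CPM per kb in the glands, the 9 ligands summed to 21.3 ± 4.23 in the glands and 98.4 ± 24.0 in the tumors, and the difference in the log2 ratio was 0.95, with overlapping groups (exact permutation p = 0.2). With the 7 ligands it was 2.09 over merged exons.

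**Figure D4:**
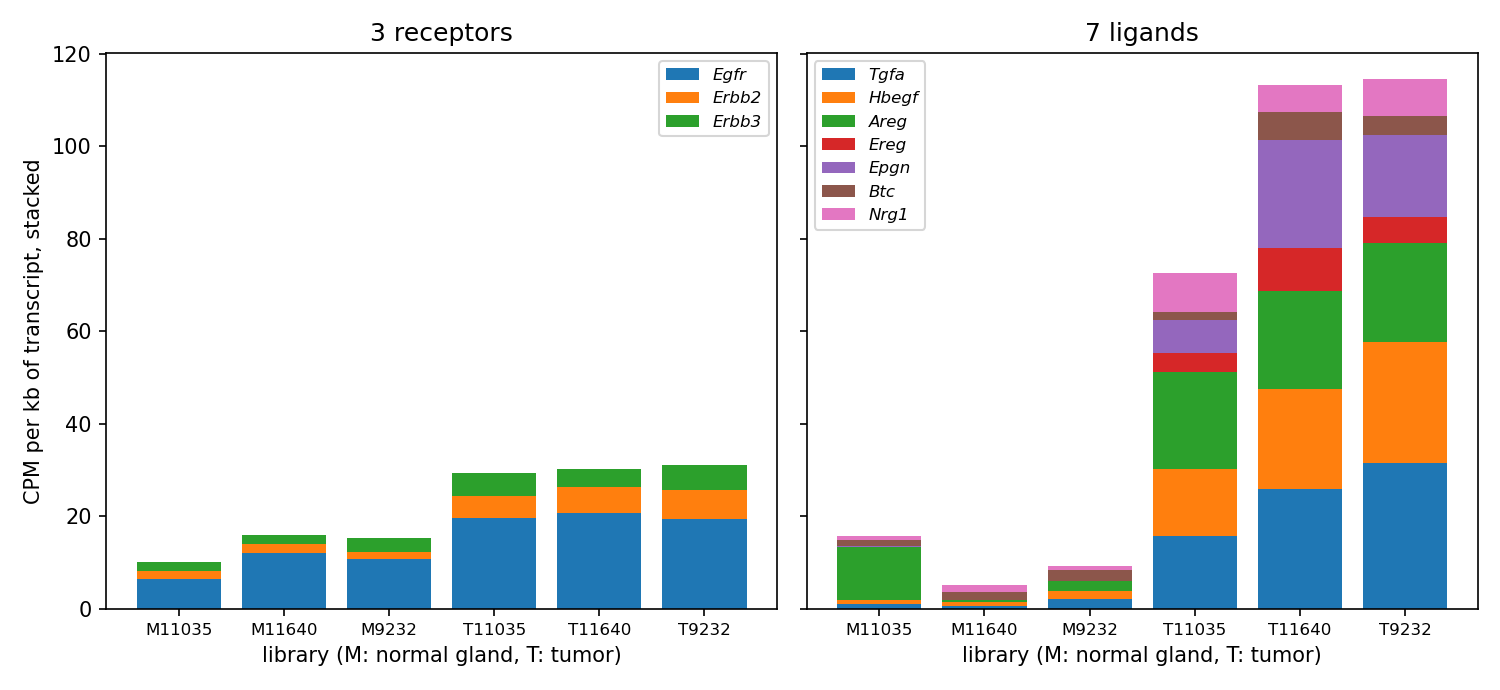
Stacked levels of the 3 receptors (left) and the 7 ligands (right) in each library, in CPM per kb of the longest coding transcript. The receptor stacks reach 10.1 to 15.9 in the glands and 29.4 to 31.1 in the tumors, and the ligand stacks 5.14 to 15.6 and 72.5 to 114.

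Of the 14 pan-epithelial markers, 10 were called higher in the tumors and 0 lower, and the log2 of their summed level was 1.61 higher in the tumors on average. The 10 genes were therefore also given relative to this sum, as a difference of log2 values in each library. On this scale *Tgfa*, *Hbegf*, *Ereg* and *Epgn* were above every gland in every tumor. The share of all genes that are so on this scale was not computed. *Tgfa* was at -6.16, -6.95 and -6.15 in the glands and at -4.08, -3.60 and -3.57 in the tumors, a mean difference of 2.67. *Hbegf* differed by 2.33, with glands between -7.13 and -6.59 and tumors between -4.87 and -4.50 (exact permutation p = 0.1 for each of these 4 genes, the smallest possible, and 0.25 adjusted over the 10). *Ereg* and *Epgn* lay between -10.2 and -8.29 in the glands, values set by the pseudocount, and between -6.29 and -4.84 in the tumors.

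For the 3 receptors the groups overlapped on this scale. *Egfr* was at -2.10, -1.50 and -2.46 in the glands and at -2.34, -2.50 and -2.83 in the tumors, 0.54 lower on average, and *Erbb3* was 0.53 lower on average. Both were lower in the tumor in all 3 mice with overlapping groups (exact permutation p = 0.2 for each, 0.286 adjusted over the 10). Without gland M11640 the difference of *Egfr* was -0.28. *Erbb2* differed by 0.03 on average (exact permutation p = 1), with glands at -5.00, -5.02 and -6.29 and tumors between -5.48 and -5.36. Without gland M9232 its difference was -0.40. *Areg* differed by 1.27 and *Nrg1* by 0.94, each higher in the tumor in 2 of 3 mice, and *Btc* by -0.60, with groups that overlapped for all 3 genes (exact permutation p = 0.4, 0.2 and 0.4). The difference of *Areg* was 2.51 without gland M11035 (exact permutation p = 0.1) and 0.45 and 0.86 without glands M11640 and M9232. That of *Nrg1* was 0.51 without gland M9232 and that of *Btc* -0.25 without tumor T11035 and -0.97 without tumor T11640. The level of an epithelial marker per cell may itself differ between tumor and gland, so this scale gives a ratio between genes and not a level per cell.

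**Figure D5:**
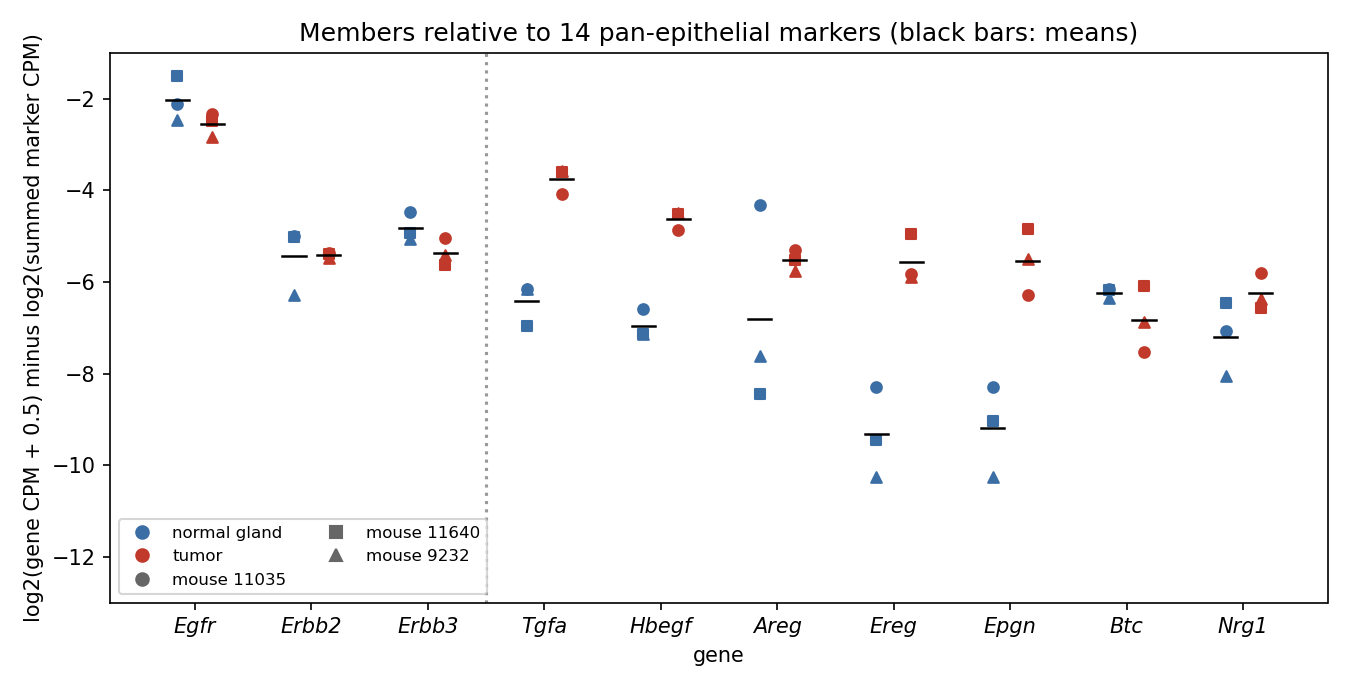
Each of the 10 genes relative to the summed level of 14 pan-epithelial markers, as log2(gene CPM + 0.5) minus log2(summed marker CPM), in each normal gland (blue) and tumor (red), with means as black bars and a marker shape for each mouse. *Tgfa*, *Hbegf*, *Ereg* and *Epgn* are separated by tissue, and *Egfr*, *Erbb2*, *Erbb3*, *Areg*, *Btc* and *Nrg1* overlap.

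Genes that release, restrain and relay these signals were described by lists. Of 12 genes of ligand shedding and processing, 4 were called higher and 1 lower (33.3% and 8.33%, against 14.5% and 13.7% of all genes), with a median log2FC of 0.80. *Rhbdl2*, which encodes a rhomboid protease of the cell surface, rose from 1.75 ± 0.44 to 8.89 ± 1.72 CPM (SD, n = 3), and the metalloprotease genes *Adam8* and *Adam19* had log2FC values of 2.05 and 1.01 (limma adjusted p = 8.00e-04 and 4.75e-04). *Adam19* fell below the fold threshold without gland M11640 (0.96) or tumor T11640 (0.98). *Pcsk6*, which encodes a proprotein convertase, fell by 1.26 on the log2 scale (limma adjusted p = 0.0243) and was not called without gland M11640, tumor T11035 or tumor T11640 (adjusted p between 0.0539 and 0.0761, limma). *Adam17*, the main protease that releases TGF-alpha and amphiregulin, was chosen after its values were seen and was below the fold threshold, with a log2FC of 0.42 (limma adjusted p = 0.0462).

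Of 14 genes that restrain ErbB receptors, 1 was called higher and 0 lower, also with edgeR and DESeq2, with 2 lower at an unadjusted p under 0.05. The share called higher, 7.14%, was below the 14.5% of all genes, and the median log2FC was 0.18. The gene called was *Cblc*, a ubiquitin ligase gene of epithelia, which was joined by a further gene without gland M9232 and was at 1.14 ± 0.52 CPM in the glands and 3.91 ± 0.99 CPM in the tumors (log2FC 1.46, adjusted p = 0.0104, limma). *Cblc* was at the floor in gland M11035, at 0.610 CPM. Its log2FC was 1.76 with a pseudocount of 0.1 and 1.21 with 1. Of 32 genes of adaptors and of the downstream cascade, 2 were called higher and 3 lower, and 27 were not called, with a median of 0.12. These shares, 6.25% and 9.38%, were below the 14.5% and 13.7% of all genes. *Hras1* and *Pik3r3*, which encode a RAS protein and a regulatory subunit of PI3K, rose by log2FC values of 1.39 and 1.27 (limma adjusted p = 0.00157 and 2.74e-04). *Pik3r1*, which encodes another regulatory subunit of PI3K, fell from 765 ± 59.0 to 191 ± 41.8 CPM (log2FC -2.02, adjusted p = 5.20e-05, limma). *Stat5a* and *Stat5b*, the transcription factors of prolactin signaling in the gland, had log2FC values of -1.88 and -1.27 (limma adjusted p = 2.94e-04 and 0.00127). The summed milk protein genes were between 2274 and 40793 CPM in the glands and between 118 and 748 CPM in the tumors, and the part of cell composition in these changes was not tested.

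The remaining lists hold genes that the MAPK pathway is known to induce. Of 10 feedback genes of this pathway, 7 were called higher and 0 lower (0 also at an unadjusted p under 0.05), and 6 higher and 0 lower with edgeR or DESeq2, where 14.5% of all genes were called higher and 13.7% lower with limma. Without gland M11035, 5 of these feedback genes were called higher. Their median log2FC was 1.13. *Spry1*, *Dusp7* and *Dusp5*, which encode an inhibitor of receptor tyrosine kinase signaling and phosphatases of MAP kinases, had the largest of these, at 1.54, 1.51 and 1.45 (adjusted p = 0.00139, 0.00363 and 0.0117, limma). Of 18 genes induced by EGF in the table, 10 (55.6%, against 14.5% of all genes) were called higher and 0 lower, the same counts as with edgeR and with DESeq2, with 0 lower at an unadjusted p under 0.05 and a median log2FC of 1.14. The count was 6 without gland M11640 and 6 without tumor T9232. *Etv4*, an ETS factor gene, rose from 0.373 ± 0.193 to 9.44 ± 1.38 CPM (log2FC 3.52 ± 0.30 SE, limma adjusted p = 4.67e-05). Its gland values were 0.407, 0.165 and 0.547 CPM, under the floor in M11035 and M11640. The size of its log2FC therefore depends on the pseudocount, at 4.42 with 0.1 and 2.93 with 1. *Ier3*, an immediate early gene, rose from 5.37 ± 1.67 to 42.7 ± 21.6 CPM, and *Plaur*, the urokinase receptor gene, from between 2.48 and 5.06 to between 16.8 and 25.8 CPM (limma adjusted p = 3.65e-04 and 3.68e-04). Many pathways other than ErbB signaling induce the genes of both lists. Over all 89 listed genes outside the 10, 24 (27.0%) were called higher and 6 (6.74%) lower, against 14.5% and 13.7% of all genes, with a median of 0.44.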

How the data were processed

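RNA-Seq libraries (NuGEN Ovation RNA-Seq System V2, which does not mark the strand) were sequenced by the authors. Per the submitters' processing notes and the paper's methods, reads were processed with CASAVA 1.8.2, mapped to mm9 with TopHat2 2.0.3 and counted per RefSeq gene with HTSeq 0.5.3p9, and rarely detected genes were removed. The deposited values are CPM on the effective library size of edgeR 3.6.1, recorded here as a signal because column sums run from 952151 to 1041170. In every library 100% of values were whole multiples of 1 step (tolerance 0.001 of a step), so fragments were recovered.

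Libraries were grouped by the tissue type of the labels, 3 against 3, and all 6 were used. limma 3.58.1 in R 4.3.3 was run without a block over 15280 genes, with the trend option, on log2 values after adding 0.5 to each CPM. Alternatives were pseudocounts of 0.1 and 1, a mean of at least 1 CPM, the mouse as a block, edgeR 4.0.16 (quasi-likelihood) and DESeq2 1.42.0 on recovered fragments, 2 other scalings, and leaving out each library. The edgeR test called 4462 genes and limma 4309. Both tissues of a mouse come from 1 animal, so mouse numbers pair the libraries; over 14712 genes their deviations from the group means correlated with r = 0.107, 0.151 and 0.0168 for the mice that gave T11035, T11640 and T9232. No 2 libraries of a tissue were copies (chi-square per degree of freedom at least 13.0).

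The members and lists were chosen with earlier results of these data known. The text names all 10 members, the 3 other family genes, and from each pathway list the up to 3 called genes with the largest rise and fall. Ratios and levels relative to markers were compared by exact permutation tests that shuffled all 6 libraries and did not use the pairing by mouse. The smallest p of 0.1 holds for this unpaired shuffling of 3 against 3. Floors cover counting error only. Lists of basal, contractile, fibroblast, endothelial, macrophage, mast cell, neutrophil, T cell, B cell and nerve markers were also summed: in tumors relative to glands the sums were 9.41, 0.387, 4.14, 0.621, 0.805, 0.261, 9.46, 0.105, 0.0122 and 0.496 times as high.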

Additional observations from a re-analysis of the deposited data

How the results depend on the processing

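Of the 10 genes, between 7 and 9 were called higher when a library was left out, with the lowest count without tumor T9232, 10 with the mouse as a replicate block, and 9 under every other alternative (with DESeq2, *Btc* in place of *Areg*). Of the other family genes, between 1 and 3 were called lower when a library was left out, with 3 without tumor T11035. The same range was 0 to 1 for shedding genes called lower, 1 to 2 for restraining genes called higher (2 without gland M9232) and 6 to 11 for EGF-induced genes called higher. For the ratio of *Erbb3* to *Egfr*, the log2 difference of 0.00426 turned to -0.0190 with a pseudocount of 1 and ran from -0.31 to 0.22 when a library was left out. For *Erbb2* relative to the pan-epithelial sum, the difference of 0.03 ran from -0.40 to 0.25. The lone reversals were in these 2 values, which lie close to 0. Among 29 named genes, 8 gained or lost a call under at least 1 of the 14 alternatives, and none changed direction. The replicate block changed the call of *Btc* and of no other named gene. Adding *Egf* and *Nrg4* to the ligands, using merged exons and doing both were chosen after seeing the data. In the glands, the depth limits *Ereg* and *Epgn*, for which a fold change can be given only as a lower bound. *Etv4* was under the floor in glands M11035 and M11640, and *Erbb4* in tumors T11640 and T9232. *Dusp5* and *Cblc* were at the floor in gland M11035.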

Other observations

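The genes next to the ligands on chromosome 5 were looked at after the values of the ligands had been seen. *Mthfd2l*, which encodes a mitochondrial folate enzyme and ends 6.10 kb before *Epgn*, was at 6.30, 6.77 and 8.07 CPM in glands M11035, M11640 and M9232 and at 16.6, 13.4 and 10.5 CPM in the tumors of the same mice. Its log2 fold change was 0.87 (standard error 0.23, adjusted p = 0.0173, limma), below the fold threshold and smaller than the fitted values of *Epgn* and *Ereg*. *Parm1*, the next gene beyond *Btc*, was at 28.5, 59.6 and 23.0 CPM in the glands and at 16.0, 15.9 and 21.4 CPM in the tumors, and was not called (log2 fold change -0.93, adjusted p = 0.0532, limma).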
